A study of Homo sapiens with 24 samples.

Results

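The ligands and receptors of the glial cell line-derived neurotrophic factor (GDNF) family were followed in H1299 cells with and without Δ133p53 isoforms, to ask whether cells with GDNF transcripts also held the transcripts of the receptors needed to answer it. The 9 genes were taken by symbol from the 60563 named genes of the count table. They are 4 ligands (GDNF, NRTN, ARTN and PSPN) and 5 receptors (RET, GFRA1, GFRA2, GFRA3 and NCAM1). The set was chosen by the measured counts of GDNF, which differed between control and the Δ133p53 cell lines, so that difference is described here without a test. The other 8 genes were added as its family members and receptors.

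Ligands of the GDNF family are secreted survival factors, best known for their action on neurons, on the enteric nervous system and on the budding kidney. A ligand first binds a GFRα protein, which is held to the outer membrane by a lipid anchor, and the pair then binds and activates the receptor tyrosine kinase RET. GDNF pairs mainly with the product of GFRA1, neurturin (NRTN) with that of GFRA2, artemin (ARTN) with that of GFRA3 and persephin (PSPN) with that of GFRA4. In cells without RET, GDNF can also signal through NCAM1, a cell adhesion molecule, again with the help of the GFRA1 product.

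H1299 is an established non-small cell lung cancer line that lacks p53. RNA with poly(A) tails was sequenced from H1299 cells carrying the vector alone (control, p53 deficient) and from 5 stable clonal cell lines made by adding a plasmid. Lines Δ133p53β5 and Δ133p53β10 overexpress Δ133p53β and lines Δ133p53α8, Δ133p53α2 and Δ133p53α1 overexpress Δ133p53α, N-terminally truncated p53 isoforms that differ at the C-terminus. Each line was 1 clone, and whether the control was a clone is not given in the sources used here. There were 4 libraries of each line and of control, 24 in all, with 21531599 to 25381731 counted reads each. The labels do not say that the libraries of a line were separate cultures, so the p-values below measure the spread between libraries, which may be technical, and the presence of an isoform and a difference between lines cannot be told apart.

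Some libraries stood apart or went against their labels. The sample labels name 3 libraries of Δ133p53β5 and 5 of Δ133p53β10, whereas the count table names 4 of each, and the library in question was counted as replicate 4 of Δ133p53β5. In addition, the deviation of each gene from its mean rose with exon length in 12 libraries (rank correlation across genes, 0.188 to 0.305) and fell with it in the other 12 (-0.271 to -0.116). Genes are not independent replicates, and this correlation served only to sort the libraries into a positive and a negative set, and the positive set held 3 of the 4 libraries for Δ133p53α8, Δ133p53α2 and control and 1 of 4 for every other line. Of 6 markers listed for lung carcinoma lines, 3 exceeded 3 reads in every library (KRT8, KRT18 and VIM) and CDH1, the epithelial cadherin, did so in none. KRT8, a keratin, was called higher in all 5 lines (log2 fold change 1.55 to 2.43). KRT18 was called higher in 1 line (0.89 to 1.89 over the lines) and VIM in none (-0.64 to 0.10). Of all tested genes, 0.967% to 1.9% were called higher in a line. None of the 5 blood markers exceeded 3 reads in any library.

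Levels are given as reads and as CPM, reads scaled to a common library size after TMM normalization. A level of 3 reads, the upper limit that a count of 0 allows, corresponds to 0.113 to 0.171 CPM and is called the floor below. It covers counting error only, since duplicate reads were not marked. Levels of different genes are compared only per kilobase (kb) of exon. Differences were tested with edgeR's quasi-likelihood test over 17990 genes and were called at a Benjamini-Hochberg adjusted p under 0.05 with a log2 fold change of at least 1.5 either way, the thresholds of the study. The filter on low counts kept GDNF, NRTN, PSPN and GFRA1. The other 5 genes, among them 4 of the 5 receptors, had too few reads to be kept.

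GDNF (ENSG00000168621) lies on the minus strand at chr5:37812677-37840041 of GRCh38. In control the 4 libraries had 1, 6, 3 and 3 GDNF reads. The Δ133p53β5 libraries had 142, 90, 102 and 78 reads and the Δ133p53β10 libraries 113, 89, 74 and 48. In Δ133p53α8 there were 130, 35, 99 and 100, in Δ133p53α2 42, 118, 67 and 51, and in Δ133p53α1 62, 50, 58 and 16. Every Δ133p53 library was above every control library, and within the Δ133p53 cell lines the low libraries were replicate 4 of Δ133p53α1 and replicate 2 of Δ133p53α8.

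Mean GDNF levels were 0.133 ± 0.0901 CPM in control (SD, n = 4), 2.3 ± 1.01 in Δ133p53α1, 3.07 ± 1.36 in Δ133p53α2, 3.72 ± 1.19 in Δ133p53β10, 3.87 ± 1.63 in Δ133p53α8 and 4.71 ± 0.948 in Δ133p53β5. The control level was at or under the floor in 3 of 4 libraries, and the ratios to its mean, from 17.3 in Δ133p53α1 to 35.3 in Δ133p53β5, rest on its 13 reads. The library values of each line overlapped those of the next line in this order, and only control stood clear of its neighbour. These are bulk measurements, in which fewer cells with a transcript and less of it per cell cannot be told apart. The mean of Δ133p53β5 was 4.94 CPM without the library of disputed clone, and that of Δ133p53β10 was 3.78 CPM with it. Per kb, GDNF in control exceeded 0.733% of the tested genes, and in the Δ133p53 cell lines 20.5% to 31.6% of them.

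Within each set of libraries the picture was the same in kind. Reads of GDNF ran from 3 to 6 in the 3 positive control libraries against 51 to 142 in the 9 positive libraries of the lines, and the single negative control library had 1 read against 16 to 102 in the 11 negative libraries of the lines. Among the Δ133p53 libraries, the positive set had the higher mean GDNF level, 4.12 against 3.06 CPM.

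**Figure D1:**
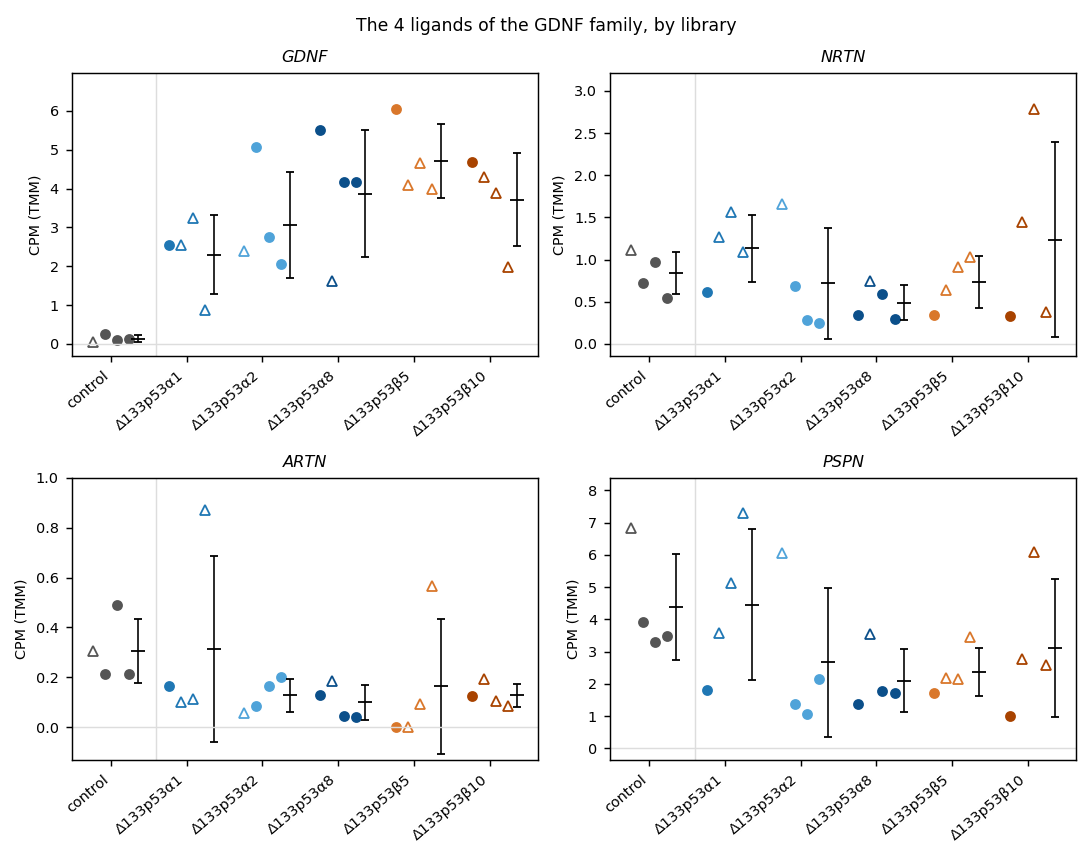
CPM of the 4 ligands in each of the 24 libraries, by line, with one y axis scale per gene. Filled circles are libraries of the positive set, open triangles those of the negative set, and the black bar to the right of each group is the mean ± SD of its 4 libraries. GDNF is the ligand for which every Δ133p53 library lies above the 4 control libraries, whereas the groups overlap for NRTN, ARTN and PSPN.

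An antisense gene, GDNF-AS1 (ENSG00000248587, a long noncoding RNA on the plus strand, chr5:37811589-37953827), overlaps GDNF in 681 exonic bases. By these GENCODE coordinates its outermost start lies 28452 bases from that of GDNF, beyond the other end of GDNF. RefSeq starts of GDNF-AS1 lie nearer, and the counts do not show which of its starts was used. The RefSeq promoter table (GRCh38.p14) places GDNF-AS1 starts 157 bases inside GDNF and 397 bases upstream of the outermost GDNF start at position 37840041. The 250 bases before this start, chr5:37840042-37840291, are shown because both genes have RefSeq starts around them and both differed between control and the lines. They are written 5′ to 3′ on the minus strand, in lower case with each CG dinucleotide in capitals.
GDNF upstream window: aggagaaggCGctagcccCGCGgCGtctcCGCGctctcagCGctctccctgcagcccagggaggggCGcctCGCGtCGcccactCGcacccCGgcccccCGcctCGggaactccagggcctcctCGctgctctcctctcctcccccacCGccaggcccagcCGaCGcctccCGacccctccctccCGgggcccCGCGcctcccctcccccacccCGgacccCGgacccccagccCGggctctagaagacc
The window holds 26 CG dinucleotides and is 78% G and C. The median over the 35116 promoter windows of this length in the table is 11, and 19.6% of them hold at least as many as this window. The table has 3 further GDNF starts, whose windows hold 8, 5 and 18, and the counts do not show which start was used. CG reads the same on both strands, and 93.9% of all windows hold at least 1, so a match by itself is common.

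GDNF-AS1 rose in all 5 lines. The control libraries had 0, 1, 2 and 1 reads. Δ133p53β5 had 37, 19, 25 and 19 and Δ133p53β10 had 21, 20, 10 and 14. Among the Δ133p53α cell lines, Δ133p53α8 had 39, 12, 25 and 45, Δ133p53α2 had 11, 37, 32 and 16 and Δ133p53α1 had 25, 9, 8 and 6. Every library of the lines was above every control library. Against the floor, the level of Δ133p53β5 was at least 9.45-fold higher, that of Δ133p53β10 6.1-fold, that of Δ133p53α8 10.7-fold, that of Δ133p53α2 8.66-fold and that of Δ133p53α1 4.69-fold, and edgeR called GDNF-AS1 in each (adjusted p from 1.76e-05 in Δ133p53α8 to 0.000795 in Δ133p53α1). GDNF-AS1 passed the low-count filter only through the lines. It was thus tested through the groups where it was high, and its calls are no independent support for the difference. Of all tested genes, those called higher made up 1.38% in Δ133p53β5, 1.9% in Δ133p53β10, 0.967% in Δ133p53α8, also 0.967% in Δ133p53α2 and 1.05% in Δ133p53α1.

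There were 0.275 GDNF-AS1 reads per GDNF read over the 20 Δ133p53 libraries, between 0.135 and 0.478 in single libraries, and 0.308 in control from 4 and 13 reads. Δ133p53β10 had the lowest pooled ratio, 0.201, and Δ133p53α2 the highest, 0.345. The libraries were made with a strand-marking protocol, but the strand setting of the counting is not stated, so GDNF-AS1 is no measurement independent of GDNF where their exons overlap.

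**Figure D2:**
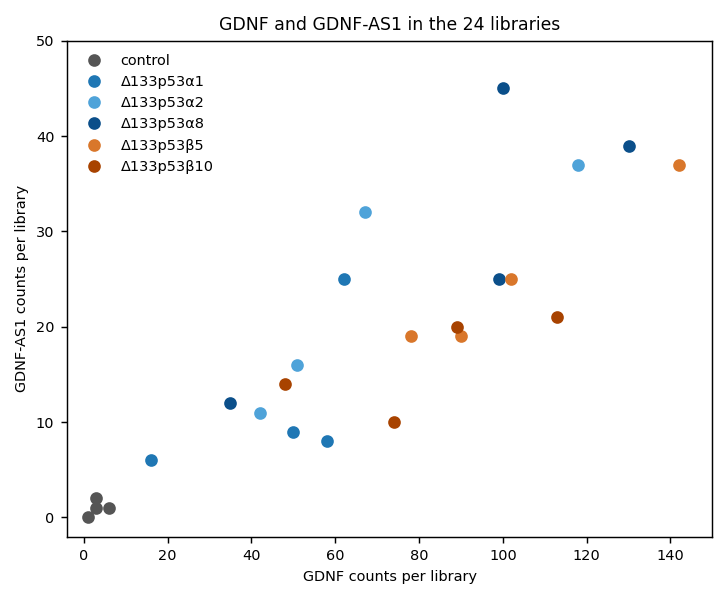
Reads of GDNF (x axis) and GDNF-AS1 (y axis) in each of the 24 libraries, coloured by line. The 4 control libraries lie at 6 GDNF reads or fewer and 2 GDNF-AS1 reads or fewer, below and to the left of all 20 Δ133p53 libraries.

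NRTN (ENSG00000171119, chr19:5805067-5828324, plus strand), which encodes neurturin, was low in all libraries. Control had 29, 17, 26 and 13 reads, and the 20 Δ133p53 libraries had 6 to 53 reads with a median of 15.5. The highest library was replicate 3 of Δ133p53β10. Mean levels were 0.841 ± 0.252 CPM in control and 0.491 to 1.24 CPM in the lines, and the groups overlapped. Log2 fold changes ran from -0.78 (SE 0.626, Δ133p53α8) to 0.53 (SE 0.601, Δ133p53β10), and NRTN was called in none of the lines (adjusted p at least 0.573).

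PSPN (ENSG00000125650, chr19:6375148-6379058, minus strand), which encodes persephin, had the highest level per kb of the 9 genes in control (1.12 ± 0.423 CPM per kb, SD, n = 4). Control had 178, 92, 88 and 82 reads. Δ133p53β5 had 40, 48, 47 and 67 and Δ133p53β10 had 24, 57, 116 and 62. Δ133p53α8 had 32, 76, 42 and 41, Δ133p53α2 had 106, 32, 26 and 53 and Δ133p53α1 had 44, 70, 92 and 134. Once scaled to library size, every line overlapped control, where the lowest library had 3.31 CPM. Log2 fold changes ran from -1.07 (SE 0.537, Δ133p53α8) to 0.02 (SE 0.527, Δ133p53α1), and PSPN was not called (adjusted p at least 0.315).

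Both ligands moved with the set of the library. In the 9 positive libraries of the lines PSPN had 24 to 53 reads (mean 1.55 CPM), and in the 11 negative ones 47 to 134 (4.07 CPM). The corresponding NRTN means were 0.415 and 1.23 CPM. With the set as a term in the fit, the PSPN log2 fold change became -1.51 in Δ133p53β5 (adjusted p = 0.00292, a call), -1.27 in Δ133p53β10 (adjusted p = 0.0131) and -1.10 in Δ133p53α8 (adjusted p = 0.0275). PSPN shares 103 exonic bases with ALKBH7 on the other strand, a gene with 187 to 1731 reads per library in the lines, and reads from the shared bases may be assigned to either.

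ARTN (ENSG00000117407, chr1:43933320-43937240, plus strand), which encodes artemin, was close to the floor. Control had 8, 5, 13 and 5 reads, and the Δ133p53 libraries had 0 to 16 with a median of 2. The highest were replicate 4 of Δ133p53α1 with 16 and replicate 4 of Δ133p53β5, the library of disputed clone, with 11. The filter did not keep ARTN, and in a fit without the filter it was called in no line (adjusted p at least 0.444, and 0 lines at an unadjusted p under 0.05).

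Per kb, GDNF had the lowest mean of the 4 ligands in control, at 0.0288 ± 0.0195 CPM per kb (SD, n = 4) against 0.115 ± 0.049 for ARTN, 0.55 ± 0.165 for NRTN and 1.12 ± 0.423 for PSPN. In Δ133p53β5 it was the highest, at 1.02 ± 0.205 CPM per kb against 0.606 ± 0.191 for PSPN and 0.478 ± 0.201 for NRTN. In Δ133p53α1 it was below both, at 0.498 ± 0.218 against 1.14 ± 0.596 and 0.743 ± 0.259, although its library values overlapped those of both.

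RET, the signalling receptor (ENSG00000165731, chr10:43077064-43130351, plus strand), had 4 reads in the 24 libraries together. Replicate 2 of control, replicates 1 and 3 of Δ133p53α1 and replicate 2 of Δ133p53β10 had 1 read each, and the other 20 libraries had 0. All lines and control were therefore at or under the floor, which for RET is 0.0126 to 0.0191 CPM per kb, and no difference between groups could be measured at this depth.

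GFRA1 (ENSG00000151892, chr10:116056925-116276803, minus strand), the co-receptor that GDNF prefers, was present in control and fell in all 5 lines. Control had 43, 55, 70 and 62 reads (2.31 ± 0.46 CPM). The 20 Δ133p53 libraries had 11 reads together, with 0 in 12 libraries and at most 2 in any. Δ133p53β5 had 0, 1, 1 and 0 reads and Δ133p53β10 had 0, 2, 0 and 2. Δ133p53α8 had 0, 1, 1 and 2, Δ133p53α2 had 0 in each library and Δ133p53α1 had 1, 0, 0 and 0. The groups did not overlap, and no library of any line exceeded the floor.

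Against the floor, the GFRA1 level of Δ133p53β5 was lower than control by at least 16.6-fold, that of Δ133p53β10 by 16.8-fold, that of Δ133p53α8 by 17.8-fold, that of Δ133p53α2 by 17-fold and that of Δ133p53α1 by 15.2-fold. GFRA1 passed the low-count filter only through control. At the level the filter asks for (0.457 CPM before TMM scaling) were 4 control libraries and 0 of the lines. GFRA1 was thus tested through the group where it was high, and its calls are no independent support for the difference. It was called lower in each by edgeR (adjusted p from 3.47e-06 in Δ133p53α2 to 2.08e-05 in Δ133p53α8), and also by DESeq2 and limma-voom. For reference, and with nothing read from it about the family, the share of all tested genes called lower was 2.94% in Δ133p53β5, 2.71% in Δ133p53β10, 1.41% in Δ133p53α8, 1.67% in Δ133p53α2 and 1.41% in Δ133p53α1. Called in either direction were 4.32%, 4.6%, 2.37%, 2.63% and 2.46%. Within the positive set, control had 55 to 70 reads and the lines 0 to 2, and within the negative set the 1 control library had 43 and the lines 0 to 2. Where the disputed library was left out or counted in Δ133p53β10, GFRA1 was called in both Δ133p53β lines.

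The level of GFRA1 in control was itself modest, 0.217 ± 0.0432 CPM per kb, which exceeded 9.12% of the tested genes. The 8 markers of neuroendocrine and neuronal cells, which commonly carry this receptor, summed to 3.22 to 6.5 CPM in control and 0.87 to 2.94 CPM in the lines. Of these markers INSM1, CHGA, ELAVL4 and STMN2 were at or under the floor in every library, and SYP was called lower in Δ133p53α2, Δ133p53α8 and Δ133p53β5. Their part in the fall of GFRA1 was not tested. Its overlapping antisense gene ENSG00000285587 had 3 reads in all 24 libraries. In both isoforms GFRA1 was at or under the floor, and no fold is given between them. Of the 9 genes, GDNF and GFRA1 differed in every line: control was the only group with GFRA1 above the floor, and there GDNF was at or near the floor. GDNF was chosen for its difference from control, and GFRA1 was tested only through control. Their opposite directions are therefore described only, and no link between them was tested.

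**Figure D3:**
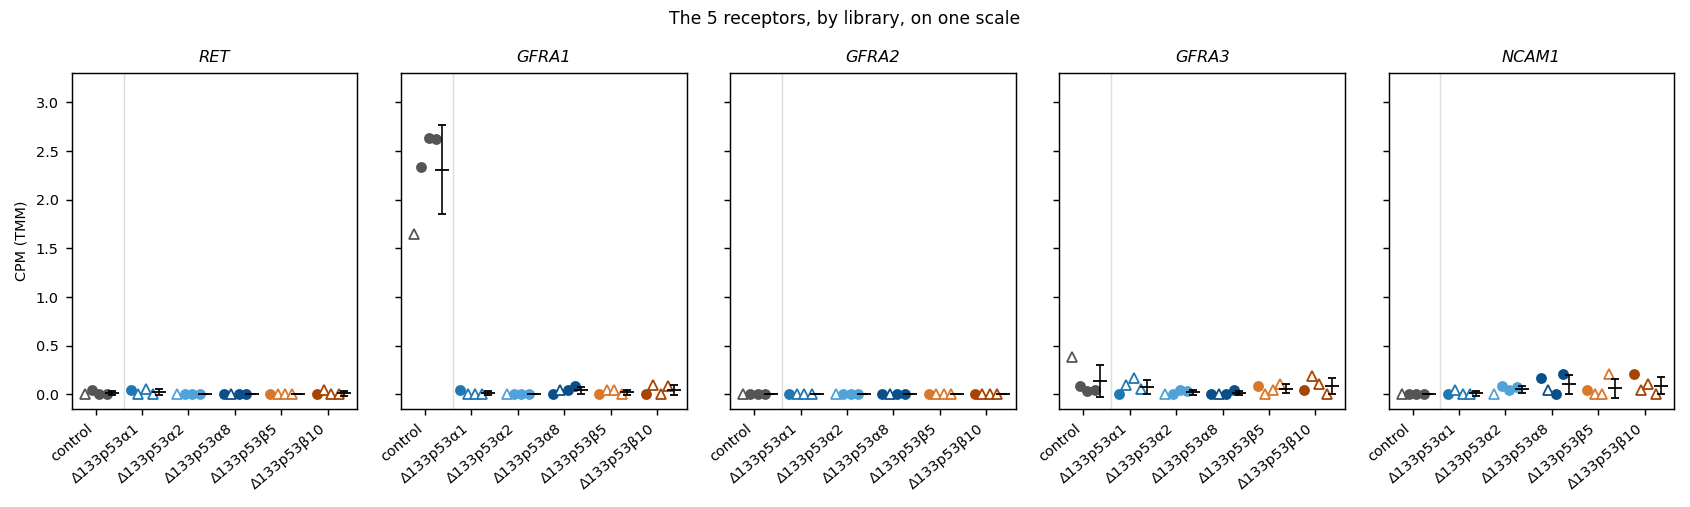
CPM of the 5 receptors in each of the 24 libraries, by line, all on one y axis. Filled circles are libraries of the positive set, open triangles those of the negative set, and the black bar is the mean ± SD of 4 libraries. GFRA1 in control, with a mean of 2.31 CPM, is the receptor that stands clear of 0, and all other groups lie at or near 0.

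The remaining receptors were at or near the floor throughout. GFRA2, the co-receptor of neurturin (ENSG00000168546, chromosome 8), had 0 reads in all 24 libraries. Taken singly, each library allows up to 3 reads, and the 24 together set a lower limit per library. GFRA3, the co-receptor of artemin (ENSG00000146013, chr5:138252380-138274621, minus strand), had 10, 2, 1 and 1 reads in control and 0 to 4 in the lines, 21 in all 20 libraries. Of the 14 control reads, 10 came from replicate 1, and without the filter GFRA3 was called in no line (edgeR adjusted p at least 0.241), with an unadjusted p under 0.05 in 2. GFRA4, the co-receptor of persephin, and GFRAL, the receptor of GDF15, had 0 reads in all libraries.

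NCAM1 (ENSG00000149294, chr11:112961275-113278436, plus strand), the alternative GDNF receptor, had 0 reads in all 4 control libraries. Δ133p53β5 had 1, 0, 0 and 4 and Δ133p53β10 had 5, 1, 2 and 0. Δ133p53α8 had 4, 1, 0 and 5, Δ133p53α2 had 0, 2, 1 and 2 and Δ133p53α1 had 0, 1, 0 and 0. These 29 reads lay in 12 of the 20 libraries, and each line except Δ133p53α1 and Δ133p53α2 had at least 1 library over the floor. Without the filter NCAM1 was called in no line (edgeR adjusted p from 0.123 in Δ133p53β10 to 0.564 in Δ133p53α1), with an unadjusted p under 0.05 in 4. In Δ133p53β5, 4 of the 5 reads came from the library of disputed clone. Overlapping genes on the other strand, of which TTC12-DT had 3 to 14 reads per library, may share reads with NCAM1.

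No line therefore had GDNF together with a full set of its receptor transcripts above the floor: RET was at or under it in all groups, GFRA1 in all 5 lines, and NCAM1 in control, Δ133p53α1 and Δ133p53α2 entirely and in 8 of the 12 other libraries. RNA under the floor does not measure protein on the cell surface, and soluble co-receptor from other cells was not measured.

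**Figure D4:**
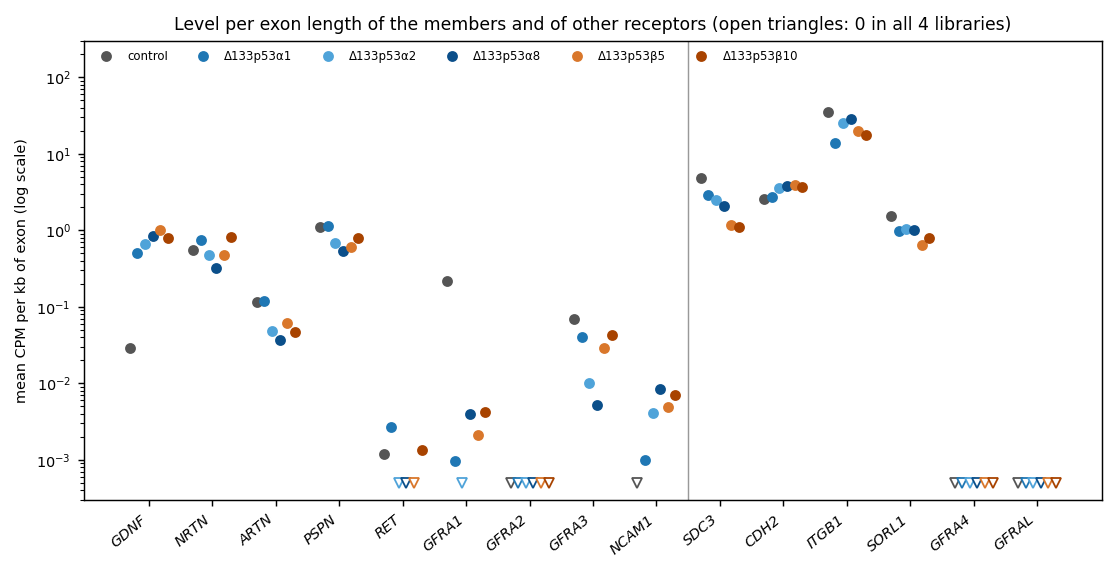
Mean CPM per kb of exon (log y axis) of the 9 genes, left of the grey line, and of 6 other receptors and binding partners, right of it, by line (colour). Each filled circle is the mean of 4 libraries, and an open triangle at the bottom marks a gene with 0 reads in all 4 libraries, drawn there because a log axis has no 0. GDNF rises from 0.0288 in control to at most 1.02 in the lines, and RET reaches at most 0.00271.

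Between the isoforms, neither NRTN nor PSPN was called by edgeR, DESeq2 or limma-voom, and neither had an unadjusted p under 0.05 with edgeR. Of all tested genes edgeR called 1.32% in either direction (0.606% higher and 0.717% lower in Δ133p53β), so no call among so few genes is near that background. The log2 fold change of Δ133p53β over Δ133p53α was 0.37 (SE 0.396) for NRTN and -0.10 (SE 0.347) for PSPN. The means of both isoforms thus differed by less than their errors for both ligands.

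Of 10 other receptors and binding partners listed for the GDNF family, with its distant relative GDF15 among them, 8 were tested. Of these 8, 1 was called, SDC3. Of all tested genes, 7.37% were called in at least 1 of the 6 comparisons, which stands beside this count and those of the lists that follow. With edgeR, 7 of the 8 had an unadjusted p under 0.05 in at least 1 comparison, beside 51.7% of all tested genes. The list was not tested as a whole. SDC3 encodes syndecan-3, a heparan sulfate proteoglycan that can bind GDNF. It had 551 to 1667 reads in control with a median of 648, 285 to 555 in Δ133p53α and 99 to 256 in Δ133p53β cell lines, and every Δ133p53β library was below every control library. It was lower in Δ133p53β5 (log2 fold change -2.07, SE 0.334, adjusted p = 0.000285) and Δ133p53β10 (-2.13, SE 0.335, adjusted p = 0.000221), and lower in Δ133p53β than in Δ133p53α with a log2 fold change under the threshold (-1.11, SE 0.216, adjusted p = 0.0025).

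CDH2, the adhesion protein N-cadherin, had 2.56 ± 0.263 CPM per kb in control (SD, n = 4) and 2.74 to 3.96 in the lines, and was not called (adjusted p at least 0.172). ITGB1, the integrin beta-1 chain, had 13.9 to 34.9 CPM per kb and was not called either (adjusted p at least 0.242). The median log2 fold change of the 8 tested genes was -1.02 in Δ133p53β5 and -0.95 in Δ133p53β10, beside -0.02 and -0.01 over all tested genes. It was -0.68 in Δ133p53α1, -0.44 in Δ133p53α8 and -0.40 in Δ133p53α2. The lines with 1 of 4 libraries in the positive set again had the lowest medians, and the part of the set was not tested. GDF15, a distant relative of the family, ran from 10 to 1719 reads within control. It was not called by edgeR (adjusted p at least 0.0729), but DESeq2 called it in Δ133p53α1 and Δ133p53β5.

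The adaptors and effectors that act inside the cell after RET were largely present. Of 20 genes listed, 16 were tested, among them SHC1 and GRB2, docking proteins of the RAS pathway, with 49.5 to 91.5 and 27.8 to 34.6 CPM per kb. None was called in any of the 6 comparisons by edgeR, while 9 had an unadjusted p under 0.05 in at least 1 of them. The same shares over all tested genes were 7.37% called and 51.7% with an unadjusted p under 0.05, so both counts are near the background. DOK6, an adaptor that binds RET directly, came closest, with 33 to 87 reads in control and 102 to 173 in Δ133p53β10, a log2 fold change of 1.49 (SE 0.282, adjusted p = 0.0013), just under the threshold. DESeq2 and limma-voom called DOK6 in Δ133p53β10. The adaptor DOK5 had 0 reads in all libraries and GRB10 had 8 in total.

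Of 18 genes that respond to RET or MAPK signalling, 17 were tested and 3 were called, in different lines and directions, beside the 7.37% of all tested genes called in any comparison. In single comparisons 0 to 2 of the 17 were called, where the share over all tested genes was 1.32% to 4.6%. With edgeR, all 17 had an unadjusted p under 0.05 in at least 1 comparison, beside 51.7% of all tested genes. That count is above the background, and the list was not tested as a whole. DUSP4, a phosphatase that turns off MAPKs, was higher in Δ133p53α1 (60 to 71 reads against 11 to 32 in control, log2 fold change 2.19, SE 0.394, adjusted p = 0.00142) and was not called in the other lines. EGR1, an immediate early transcription factor, was lower in Δ133p53β5 (-2.14, SE 0.508, adjusted p = 0.00859) and Δ133p53β10 (-2.23, SE 0.511, adjusted p = 0.00681). FOS, another immediate early factor, was lower in Δ133p53β10 (-2.40, SE 0.659, adjusted p = 0.0234).

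For EGR1, control ran from 57 to 571 reads and the Δ133p53β libraries from 29 to 88, so the groups overlapped, and for FOS the ranges were 43 to 575 and 24 to 96. Without replicate 3 of control, the EGR1 log2 fold change in Δ133p53β5 was -1.56 (adjusted p = 0.0606) and that of FOS in Δ133p53β10 -1.72 (adjusted p = 0.13). FOS also lost its call without replicate 2 (adjusted p = 0.074), 3 (adjusted p = 0.0738) or 4 (adjusted p = 0.0578) of Δ133p53β10. Feedback inhibitors of the pathway such as SPRY4 (log2 fold change -0.75 to -0.15) and DUSP6 (-1.47 to -0.23) and the target gene ETV4 (0.22 to 0.84) were called in no line. Over the list the median log2 fold change was -0.74 in Δ133p53β5, -0.56 in Δ133p53β10, -0.40 in Δ133p53α1, -0.20 in Δ133p53α8 and -0.16 in Δ133p53α2. Over all tested genes it was -0.05 to 0.03. The lines with 1 of 4 libraries in the positive set, Δ133p53β5, Δ133p53β10 and Δ133p53α1, had the lowest medians. Every line held libraries of both sets in unequal shares, so isoform and library set are confounded only in part. The part of the set in these medians was not tested.

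Partners of NCAM1 gave no call. Of 6 listed, 4 were tested (FYN, PTK2, FGFR1 and ST8SIA4), 0 were called by edgeR, DESeq2 or limma-voom, and 2 had an unadjusted p under 0.05 with edgeR. Beside the 7.37% and 51.7% of all tested genes, this is near the background and is no result about these partners. FGFR1, a growth factor receptor that binds NCAM1, had a log2 fold change of -0.29 to -0.04. NCAM2 and ST8SIA2, which adds polysialic acid to NCAM1, had 0 reads in all libraries.

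Among 22 developmental regulators of GDNF and RET, 12 were tested and 4 were called, beside 7.37% of all tested genes called in any comparison and 1.32% to 4.6% in single ones. In single comparisons 1 or 2 of the 12 were called. With edgeR, 9 had an unadjusted p under 0.05 in at least 1 comparison, beside 51.7% of all tested genes. At the level that the low-count filter asks for in 4 libraries were 4 control and 1 line libraries for EYA1, 1 and 13 for ROBO2, and for OSR1 2 control, 6 Δ133p53α and 0 Δ133p53β libraries. These genes were thus tested mainly through the groups where they were high, and nothing is read from these counts. EYA1, a coactivator upstream of GDNF in the embryonic kidney, had 18 to 26 reads in control. Δ133p53β5 had 0 to 2, Δ133p53β10 1 to 4, Δ133p53α8 0 to 3, Δ133p53α2 0 to 6 and Δ133p53α1 2 to 15, all below the lowest control library. It was called lower in Δ133p53α2 (adjusted p = 0.00549), Δ133p53α8 (0.00576), Δ133p53β5 (0.00117) and Δ133p53β10 (0.0097), by at least 6.78-fold in Δ133p53α8 and 6.32-fold in Δ133p53β5 against the floor, and had an adjusted p of 0.149 in Δ133p53α1.

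BMP4, a secreted factor that restrains the response to GDNF in the kidney bud, was higher in Δ133p53α1 (35 to 43 reads against 13 to 21, log2 fold change 1.54, SE 0.303, adjusted p = 0.0032). Its log2 fold change there fell under the threshold without replicate 1 of control (1.42) or without replicate 2 (1.45), 3 (1.48) or 4 (1.47) of Δ133p53α1. ROBO2, the receptor of SLIT2, was higher in Δ133p53α8 (1.86, SE 0.489, adjusted p = 0.029) and Δ133p53β5 (1.69, SE 0.493, adjusted p = 0.0317) on 3 to 10 reads in control and 7 to 27 in these lines.

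The ROBO2 calls were lost without single libraries. In Δ133p53α8 this was so without replicate 1 (adjusted p = 0.0896), 2 (0.0927) or 4 (0.0626) of control or replicate 1 of Δ133p53α8 (0.113). In Δ133p53β5 it was so without replicate 1 (0.0743), 2 (0.0961) or 4 (0.0651) of control, replicate 1 of Δ133p53β5 (0.0805) or the library of disputed clone (0.11, and 0.115 with that library in Δ133p53β10). OSR1, a transcription factor of the early kidney, was lower in Δ133p53β than in Δ133p53α (0 to 4 against 0 to 22 reads, log2 fold change -2.18, SE 0.466, adjusted p = 0.00547). SALL1 had 0 reads in all libraries.

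**Figure D5:**
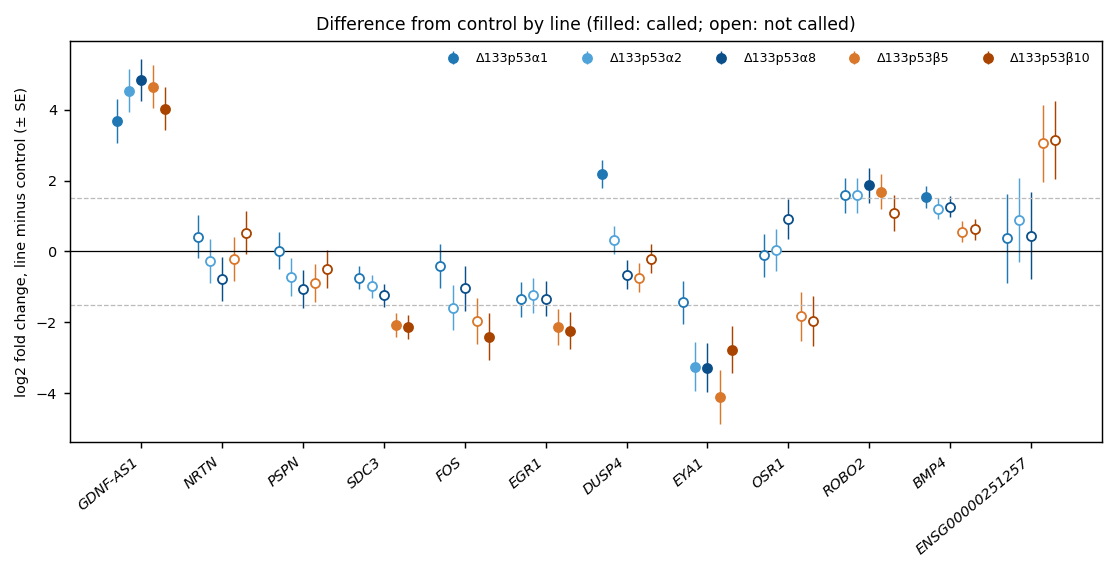
Log2 fold change of each line over control, with its SE, for GDNF-AS1, NRTN, PSPN and the genes of the lists called in any comparison. Filled points were called, open points were not, and dashed lines mark the threshold of 1.5. GDNF-AS1 is called in all 5 lines, EYA1 is called lower in 4, and NRTN and PSPN are called in none. GDNF-AS1 passed the low-count filter only through the lines, and EYA1 mainly through control.

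Around GDNF, 39 annotated genes within 1 Mb were listed in the count table and 11 were tested. With edgeR and limma-voom, GDNF-AS1 was the neighbour called against control, in all 5 lines, and DESeq2 also called ENSG00000251257 in Δ133p53β5 and Δ133p53β10. GDNF-AS1 passed the low-count filter only through the lines and shares exonic bases with GDNF. Its calls are thus not independent of the choice of GDNF. The other 10 tested had a median log2 fold change of -0.23 to 0.08 with edgeR. ENSG00000251257, a long noncoding RNA 620884 bases away (chr5:38460925-38468339, minus strand), was called between the isoforms by edgeR (log2 fold change 2.53 higher in Δ133p53β, SE 0.653, adjusted p = 0.0221). It had 0 to 14 reads in the Δ133p53α and 6 to 61 in the Δ133p53β libraries, which overlapped, and 5 Δ133p53β, 2 Δ133p53α and 0 control libraries reached the level of the filter. The call was lost without replicate 3 of Δ133p53β10 (2.18, adjusted p = 0.0633) or without the library of disputed clone (1.88, adjusted p = 0.109), and with that library in Δ133p53β10 (2.09, adjusted p = 0.0588).

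By Pearson correlation of log2 CPM over the 24 libraries, the 5 genes most like GDNF were LRRC4C (r = 0.95), ENSG00000236453 (0.95), GDNF-AS1 (0.94), ZNF22 (0.94) and CRACR2A (0.93). GFRA1 was among the least like it, with r = -0.89. These values are set mostly by the gap between control and the lines, and all points share the libraries. Over the 20 Δ133p53 libraries alone, the leading genes were PLEKHG7 (0.90), SALL3 (0.88), ZNF45-AS1 (0.87), EIF3J (0.87) and SSR3 (0.86). GDNF-AS1 then had r = 0.74 and rank 88, GFRA1 0.02 and PSPN -0.55, and the opposite signs for GDNF and PSPN go with the set of the library given above.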

How the data were processed

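Poly(A) RNA of 24 libraries (6 groups of 4) was sequenced by the authors with a strand-marking protocol. Per the paper's methods and the labels' processing notes, reads were trimmed with Cutadapt, aligned to GRCh38 (hg38) with HISAT2 and counted per gene with featureCounts on an Ensembl annotation, and limma is also named. The authors deposited raw read counts, with genes named by symbol. Strand setting and treatment of multiply mapped reads are not given in the sources used here.

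Counts were analysed in R 4.3.3 with edgeR 4.0.16 (TMM, filterByExpr by group, quasi-likelihood, all 6 groups fitted together, 18 residual degrees of freedom, Benjamini-Hochberg over 17990 genes). The study's methods name DESeq2 (1.42.0 here), which was run as an alternative, as was limma-voom (3.58.1). Exon lengths and positions are from GENCODE v44, with 98.6% of tested genes matched. No library repeated another of its own group (lowest chi-square per degree of freedom 15.8 over 36 pairs). Libraries of different groups were not compared in this way. The edgeR fit was run on simulated data with changes set in Δ133p53α1 only, in genes with higher mean counts than NRTN, GFRA1 or GDNF-AS1. It called 82% and 76% of the genes set to log2 fold changes of 2 and -2, and 100% and 98% at 4 and -4. The simulation held no library sets and does not cover genes as low as these.

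The genes, lists and tests were chosen with earlier results of these data known. Named genes are the 9, list genes and neighbours called in any comparison (at most 4 a list) and the 5 genes most like GDNF. CDH2, ITGB1, GDF15, DOK6, DOK5, GRB10, SHC1, GRB2, SPRY4, DUSP6, ETV4, FGFR1 and genes at 0 reads were named after their values were seen. Some genes that this rule or the lists hold are not reported here. Alternatives were RLE size factors, 2 other filters, the replicate number as a block, pairwise fits, the library set as a term, the disputed library moved or left out, and leaving out each library.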

Additional observations from a re-analysis of the deposited data

Results flagged for a closer look

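In 8 of 43 groups of 4 libraries, 1 library of a family gene lay far from the other 3. In 5 of these it had 1 read where the other 3 had 0, which this measure always marks, so the number of groups cannot be set against the 1 in 20 that chance gives for continuous values. For ARTN these were replicate 4 of Δ133p53α1, at 0.871 CPM (16 reads), and replicate 4 of Δ133p53β5, the library of disputed clone, at 0.565 CPM (11 reads). For GFRA3 it was replicate 1 of control, at 0.384 CPM (10 reads). The other 5 were libraries with 1 read in a group otherwise at 0, and so lie under the floor. They were replicate 2 of control for RET (0.0425 CPM), replicate 2 of Δ133p53β10 for RET (0.0484 CPM), replicate 1 of Δ133p53α1 for GFRA1 (0.0413 CPM), replicate 4 of Δ133p53α8 for GFRA3 (0.0417 CPM) and replicate 2 of Δ133p53α1 for NCAM1 (0.0508 CPM).

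Of the genes of the lists and the neighbours of GDNF, 2 were called between the isoforms by edgeR, beside 1.32% of all tested genes. OSR1 had a log2 fold change of -2.18 (lower in Δ133p53β, adjusted p = 0.00547), and ENSG00000251257, a neighbour of GDNF, had 2.53 (higher in Δ133p53β, adjusted p = 0.0221). OSR1 reached the level of the low-count filter in 6 Δ133p53α and 0 Δ133p53β libraries, and ENSG00000251257 in 2 and 5. Each was thus tested mainly through the isoform where it was high. The ENSG00000251257 call was lost without the disputed library (adjusted p = 0.109) or with it in Δ133p53β10 (0.0588). It was also lost without replicate 3 of Δ133p53β10 (0.0633).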

How the results depend on the processing

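The number of family genes other than GDNF called in each line (1, GFRA1) was unchanged under DESeq2, limma-voom, RLE size factors, no filter, pairwise fits, both treatments of the disputed library and every fit leaving out 1 library (1 in each line, and 0 between the isoforms), although GFRA1 passed the main filter only through control. A filter at a mean of 1 CPM removed GFRA1 from the test and gave 0 in each line, and the library set as a term added PSPN in Δ133p53β5 and gave 2. The position of GDNF among the 9 genes by level was 2 in Δ133p53α1 and 1 in Δ133p53α2 and Δ133p53β10 by CPM, and 3, 2 and 2 by CPM per kb. With the replicate number as a block the calls were again 1 in each line and 0 between the isoforms, the PSPN log2 fold change in Δ133p53α1 turned to -0.01, and ROBO2 lost its call in Δ133p53β5 (adjusted p = 0.0549). The numbers do not pair the libraries, since 6 of 20 line-control and 11 of 24 isoform pairs had correlated deviations over 0.1 (r from -0.886 to 0.893).

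Uncalled ligand log2 fold changes near 0 turned in sign. NRTN became -0.28 in Δ133p53α1, -0.27 in Δ133p53β10 and -0.08 between the isoforms with the library set as a term, and -0.01 in Δ133p53β10 with limma-voom. PSPN in Δ133p53α1 became -0.71 with the set as a term, -0.11 with limma-voom, -0.03 with the CPM filter and -0.02 without the disputed library. Leaving out each library gave ranges of -1.05 to 0.03 (NRTN, Δ133p53α2), -0.42 to 0.03 (NRTN, Δ133p53β5), -0.25 to 0.85 (NRTN, Δ133p53β10), -0.02 to 0.63 (NRTN, isoforms), -0.36 to 0.32 (PSPN, Δ133p53α1) and -0.38 to 0.16 (PSPN, isoforms). The cause was not tested, and leaving out replicate 3 of Δ133p53β10 gave the lowest NRTN value there. FOS in Δ133p53β10 also lost its call with limma-voom (adjusted p = 0.0798) and pairwise fits (0.074), and EGR1 there with pairwise fits (0.0702). Depth limits the receptors: below 3 reads a library cannot show whether a transcript is absent.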
